A study of Mus musculus with 8 samples.

Results

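The cytosolic ribosomal protein genes encode the protein part of the ribosome that translates nuclear messenger RNA. They were taken as the protein-coding genes whose mouse symbol begins with Rpl or Rps and a number, together with Rpsa, Rplp0, Rplp1 and Rplp2 and without the Rps6k kinase genes. This rule, which uses names and no measured value, found 92 genes of the 29621 that had reads summed over their transcripts. They comprised 31 proteins of the small subunit, 43 of the large subunit outside the stalk, 3 proteins of the P stalk, 14 second copies and paralogs, and Rps19bp1. The last carries the name because its product binds the Rps19 protein, and it encodes no ribosomal protein.

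RNA was sequenced from whole pancreas of C57BL/6 mice at postnatal day 42, after perfusion and with ribosomal RNA depleted from total RNA. KPC-OG mice carried p48-Cre, an oncogenic allele that Cre switches on, Trp53fl/fl, and the Cre-inducible allele R26tm1(LSL-OG), and gave 4 libraries. KPC mice carried the same alleles without the R26 allele, and also gave 4 libraries. Both groups thus share the Cre, the oncogenic allele and the floxed Trp53 gene, and the p48 (Ptf1a) locus confines Cre mainly to cells of the pancreatic epithelial lineage. Whether every library is a separate animal is not stated in the labels, and p-values cover the spread among the libraries at hand.

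Each ribosome needs 1 copy of nearly every ribosomal protein, and the P stalk proteins, which recruit elongation factors, are present in more than 1 copy. Their messenger RNAs are among the most abundant of a cell and begin with a 5′ terminal oligopyrimidine (TOP) tract, through which mTOR signalling and the RNA-binding protein Larp1 set how much of them is translated. In the exocrine pancreas, acinar cells carry an unusually large number of ribosomes to make digestive enzymes. Ribosomal protein genes are short and have left many processed pseudogenes in the mouse genome, some of which are nearly identical to the parent over the coding sequence.

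Estimated reads per library were 13671606 to 18292115 in KPC-OG and 7373286 to 11292570 in KPC. TMM factors, which scale libraries of different composition to a common typical gene, were 1.14 to 2.28 in KPC-OG and 0.483 to 0.653 in KPC. KPC-OG 3 stood apart from the other KPC-OG libraries, with the lowest factor of its group and 20.4% of reads at 16 acinar markers, against 11.6% to 17.2% in the other three. With TMM scaling, edgeR's quasi-likelihood test called 2486 of 14267 tested genes higher in KPC-OG (17.4%) and 2373 lower (16.6%), or 34.1% in either direction at an adjusted p under 0.05. Scaling by library size alone moved the median gene up by 1.74 on the log2 scale relative to TMM, and 91.7% of genes were then called higher.

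The 92 genes took a larger share of the reads in KPC-OG. They held 2.25%, 2.87%, 1.73% and 2.40% of gene-level reads in KPC-OG libraries 1 to 4, against 0.611%, 0.761%, 0.703% and 0.679% in KPC libraries 1 to 4. Every KPC-OG library lay above every KPC library, and the lowest of them was KPC-OG 3. The mean share was 2.31% ± 0.47 in KPC-OG and 0.688% ± 0.062 in KPC (SD, n = 4 each), a ratio of 3.36. A sum over chosen genes was given no test. In bulk tissue, fewer cells of a type and less RNA per cell cannot be told apart.

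Reads assigned to Lars2, the mitochondrial leucyl-tRNA synthetase gene, took 5.35% ± 1.74 of reads in KPC-OG and 24% ± 4.06 in KPC (SD, n = 4 each). Without Lars2 in the total, the ribosomal protein share was 2.44% ± 0.48 in KPC-OG and 0.908% ± 0.094 in KPC, a ratio of 2.69. On the TPM scale, which divides by transcript length, the same genes held 5.32% ± 1.06 in KPC-OG and 1.74% ± 0.20 in KPC. The 78 genes of the mitochondrial ribosomal proteins also held a larger share of reads in KPC-OG, at 0.134% ± 0.034 against 0.0392% ± 0.0044 in KPC, a ratio of 3.41. Relative to the typical gene the difference was small. Summed TMM-scaled CPM, the read count scaled to a common library size, of the 92 genes were 12334, 12968, 15188 and 10604 in KPC-OG libraries 1 to 4, against 12658, 11653, 13168 and 12062 in KPC libraries 1 to 4. On this scale the groups overlapped, with the highest and the lowest sum both in KPC-OG and a ratio of means of 1.03. All levels that follow are on this scale unless TPM is named, and log2 fold changes compare KPC-OG with KPC, each given with its standard error.

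**Figure D1:**
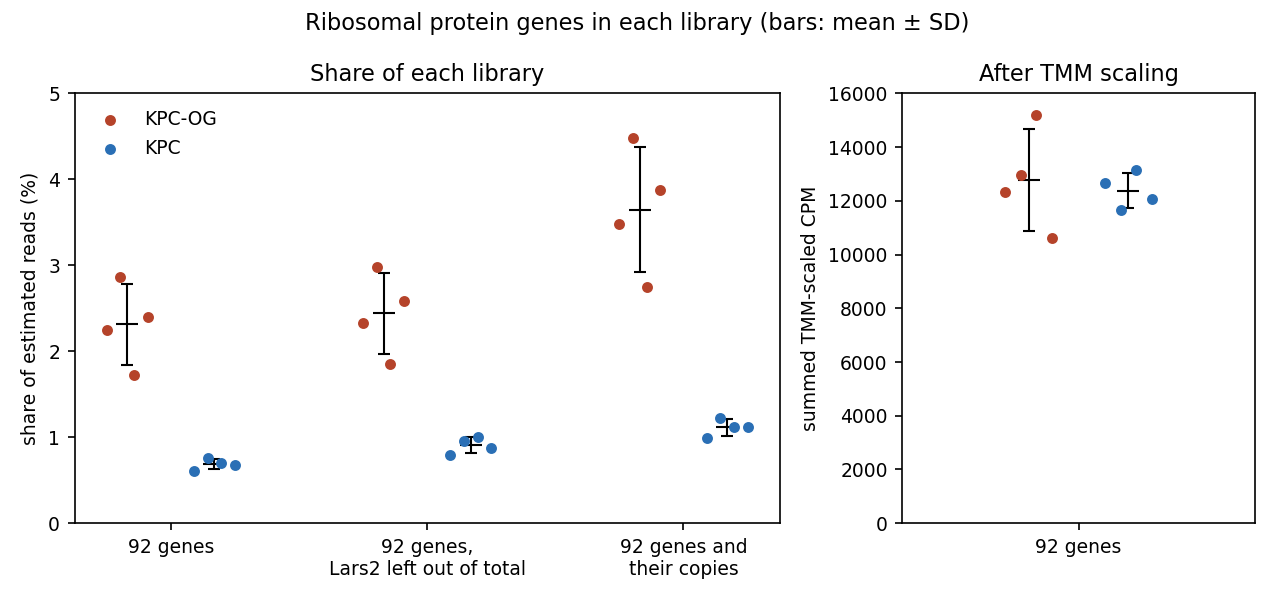
Share of estimated reads in percent (left panel, in the order all 92 genes, the same with Lars2 left out of the total, and the genes with their near-identical copies) and summed TMM-scaled CPM (right panel), one point per library with the mean and SD. The KPC-OG points lie above the KPC points in each of the share columns, while the sums after TMM scaling overlap at 10604 to 15188 in KPC-OG and 11653 to 13168 in KPC.

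Many reads of ribosomal protein sequence stood at copies of the genes elsewhere in the genome, and the level of a gene alone differed from its level with those copies. For each member, the genes holding at least 50% of the 20-base words of its coding sequence were counted as copies, since the authors' quantification used words of 20 bases. This gave 339 copies, 332 of them processed pseudogenes, for 72 of 87 families of members and their copies. Copies held 36.8% of all family reads, and in 30 families they held most of them. In 20 members a copy contained every coding word of the parent.

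For Rpl5 and Rpsa nearly all reads stood at copies. Rpl5 binds 5S ribosomal RNA with Rpl11, and both can bind the p53 inhibitor Mdm2 when ribosome assembly is disturbed. Rpl5 (chromosome 5, 107900502 to 107909005, plus strand, GRCm38) kept 2.44% of the reads of its family. Nearly all others were at Gm15500 on chromosome 7, which is identical to it over all 891 coding bases, of which the first 60 are printed here once for both. Rpsa, the small subunit protein also known as the laminin receptor precursor (chromosome 9, 120127689 to 120132369, plus strand), kept 2.76%, and most of the rest was at Rpsa-ps10 on chromosome 3. Those sequences differ at 6 of 885 coding bases, and bases 160 to 219 are shown from GENCODE M21 with capitals at the positions that differ.
Rpl5 and Gm15500: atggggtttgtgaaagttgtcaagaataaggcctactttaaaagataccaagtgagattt
Rpsa: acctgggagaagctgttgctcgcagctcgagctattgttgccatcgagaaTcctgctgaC
Rpsa-ps10: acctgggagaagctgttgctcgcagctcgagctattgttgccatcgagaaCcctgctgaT

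Rpl35 lay lowest of all subunit genes, at 3.56 TPM, with 0.579% of its family's reads, most of the others being at Gm2000. Rps23, which helps form the decoding centre, kept 1.5% of its family's reads, and Rpl23a, which lies at the polypeptide exit, kept 1.83%. With the copies added, these genes came to levels close to the rest: 698 TPM for Rpl35, 849 TPM for Rps23, 608 TPM for Rpl23a, 870 TPM for Rpl5 and 803 TPM for Rpsa, as means over the 8 libraries. Over the 77 genes of the subunits and stalk, the 10th and 90th percentiles of mean TPM were 31.6 and 792, a 25.1-fold spread, and 8 genes lay under 30 TPM. Over the same genes with copies added they were 399 and 1013, a 2.54-fold spread. The lowest family was then Rpl13a at 54.5 TPM, of which 98.0% was at the member itself. The highest was Rpl41, the shortest ribosomal protein, at 1987 TPM, and Rplp1 of the P stalk led the genes taken alone at 1884 TPM.

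**Figure D2:**
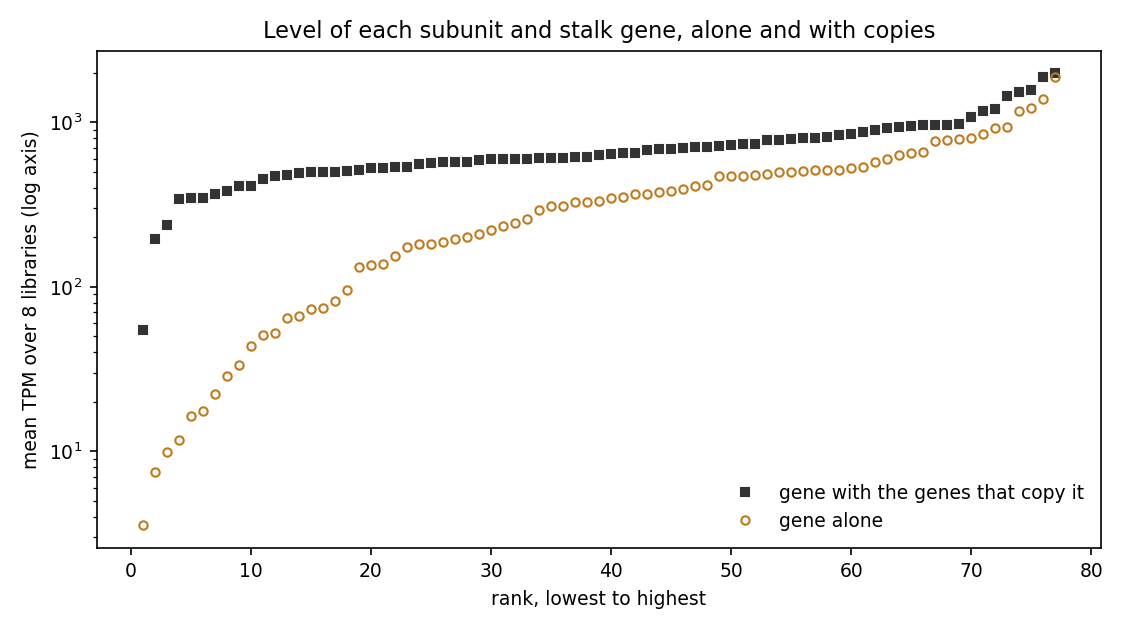
Mean TPM over the 8 libraries on a log axis for the 77 subunit and stalk genes, ranked from lowest to highest, alone (open circles) and summed with their copies (squares). The lower tail of the single genes, 8 of them under 30 TPM, is absent once copies are added, apart from 1 family at 54.5 TPM.

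Of the 92 genes, 85 had enough reads to be tested, and 13 passed: 10 rose and 3 fell in KPC-OG. That is 15.3% of those tested, beside 34.1% of all genes. The median log2 fold change was 0.15 over the 85 genes and 0.09 over all genes. The values ran from -0.62 to 1.04, with an SD of 0.37 over these genes and 0.97 over all genes. Of the 85 genes, the libraries of the groups did not overlap for 12 that were higher in KPC-OG and 3 that were lower. Over all tested genes, 17.6% were higher and 17% lower without overlap. The counts moved with single libraries, and the share of all genes called in those fits is not given here. The number of higher genes was 5 without KPC-OG 2 or without KPC 4 and 16 without KPC-OG 4. The number of lower genes was 0 without KPC-OG 1, KPC-OG 2, KPC-OG 4 or KPC 4, 1 without KPC 1 or KPC 3, and 7 without KPC-OG 3. In the fits with no lower gene, 4 or 5 genes were lower at an unadjusted p under 0.05 by edgeR. Without KPC-OG 3, 12 genes were higher. With library sizes alone, 84 of the 85 were higher and none lower by edgeR, with none lower at an unadjusted p under 0.05 either, beside the 91.7% of all genes, and so each direction is relative to the typical gene.

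**Figure D3:**
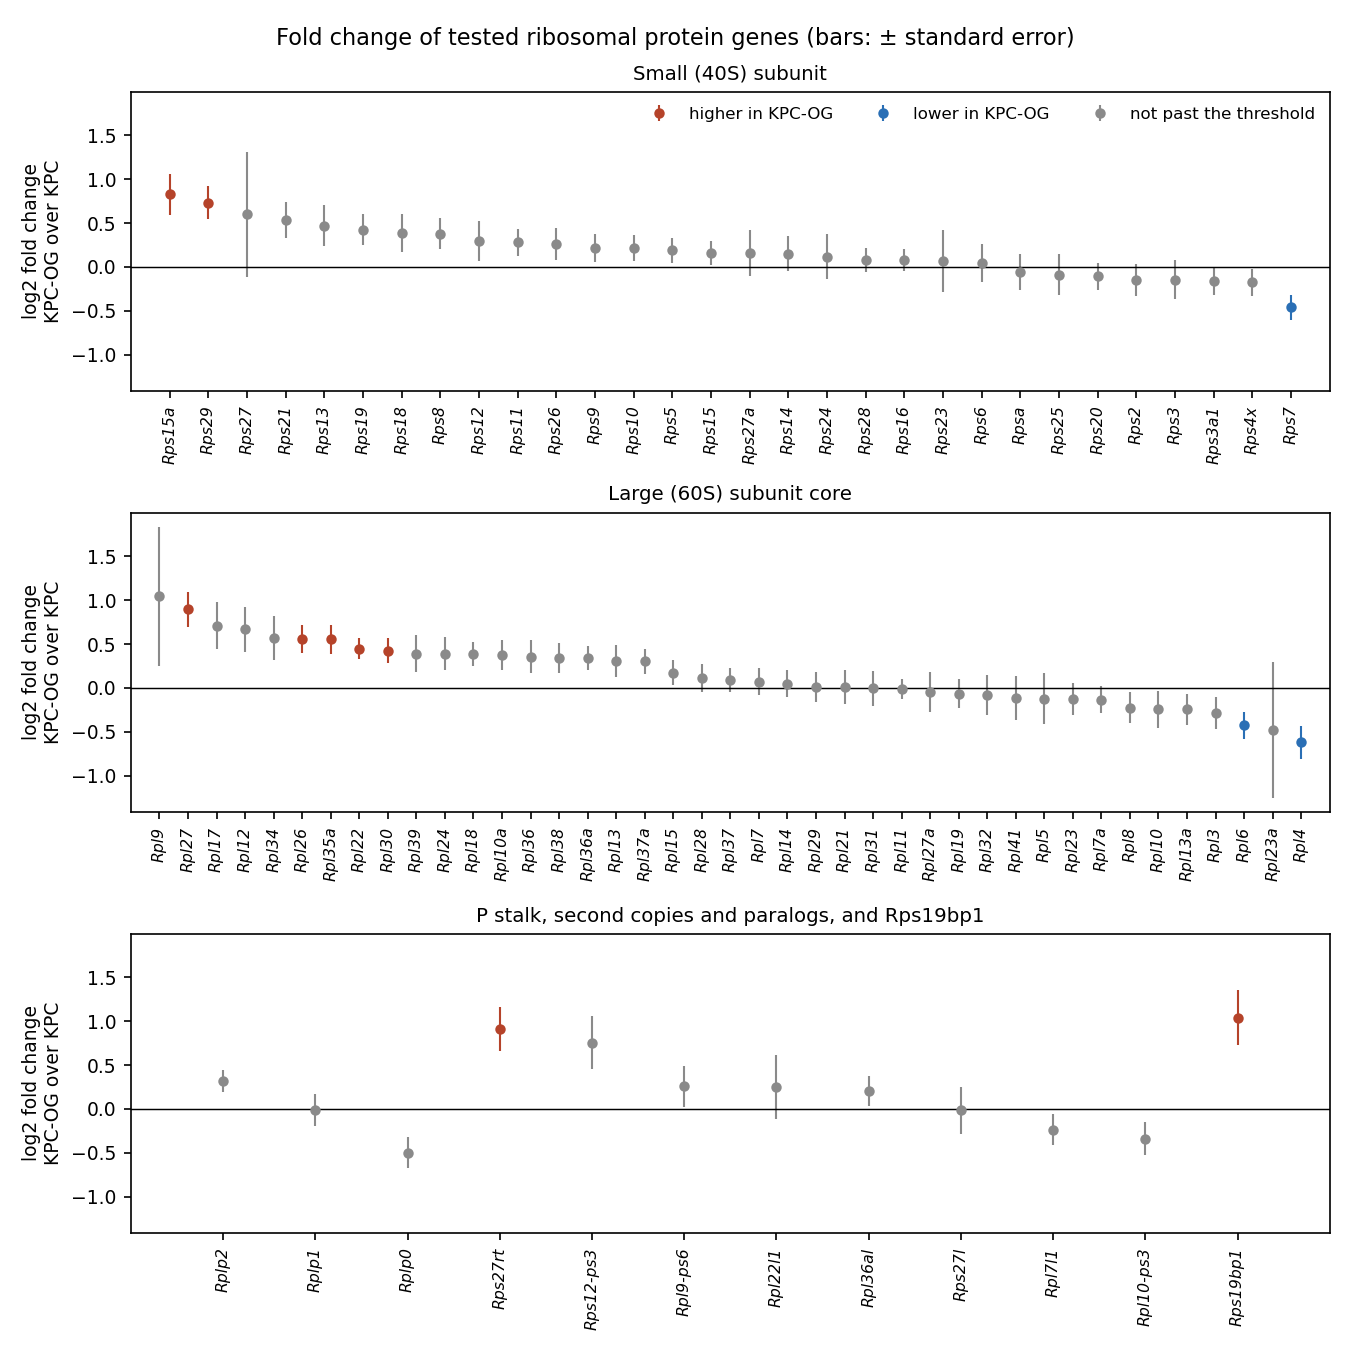
Log2 fold change in KPC-OG over KPC and its standard error for 83 of the 85 tested genes, in panels for the small subunit, the large subunit, and the P stalk with paralogs and Rps19bp1. Most genes lie within 0.5 of 0 on the log2 scale, and the widest bars belong to genes that share reads with copies, such as Rps27, Rpl9 and Rpl23a.

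In the small subunit, 3 of 31 genes rose, 1 fell and 27 did not pass, with a median log2 fold change of 0.16. These calls come to 12.9%, beside 34.1% of all tested genes, whose median was 0.09. Rps29, a zinc-binding protein of the head (chromosome 12, 69157722 to 69159186, minus strand), had 94.6, 100.4, 80.5 and 57.3 CPM in KPC-OG libraries 1 to 4, against 49.9, 56.5, 41.9 and 52.0 CPM in KPC libraries 1 to 4. The other genes are given in the same order of libraries. KPC-OG 4 lay just above the highest KPC library, and the rise was 0.73 ± 0.19 (edgeR adjusted p = 0.0129). The call held when any single library was left out, with a largest adjusted p of 0.0418.

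Rps15a, an 18S ribosomal RNA-binding protein conserved in bacteria (chromosome 7, 118104372 to 118116188, minus strand), had 65.2, 74.1, 82.3 and 50.2 CPM in KPC-OG, against 27.5, 50.9, 46.7 and 28.7 CPM in KPC. KPC-OG 4 fell just under KPC 2. The rise was 0.82 ± 0.23 (edgeR adjusted p = 0.0210), and the call was lost without KPC-OG 2, KPC 1 or KPC 4. Rps7, needed in human cells for 18S ribosomal RNA processing (chromosome 12, 28630854 to 28635953, minus strand), was the gene that fell, with 49.2, 52.6, 63.5 and 42.6 CPM in KPC-OG, against 66.3, 68.4, 80.7 and 70.8 CPM in KPC. The groups did not overlap, and the fold change was -0.46 ± 0.15 (edgeR adjusted p = 0.0331). Its call was lost without KPC-OG 1, KPC-OG 2, KPC-OG 4, KPC 3 or KPC 4, and with upper-quartile scaling, thinning to one depth, no low-count filter or protein-coding transcripts alone (adjusted p of 0.0549 to 0.0643 by edgeR). Copies held most reads of the Rps7 family, which as a whole changed by -0.12 (edgeR adjusted p = 0.612).

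The most abundant small subunit genes did not pass the test. Rps24 had 481 ± 184 CPM in KPC-OG and 443 ± 61.9 CPM in KPC (SD, n = 4 each; edgeR adjusted p = 0.756). Rps14 averaged 359 ± 89.1 CPM in KPC-OG and 324 ± 23.3 CPM in KPC, and Rps18 averaged 328 ± 93.1 CPM in KPC-OG and 251 ± 17.7 CPM in KPC (SD, n = 4 each). For all of these genes the highest value was in KPC-OG 3. Rps6, the substrate of the S6 kinases downstream of mTOR, had 173 ± 52.4 CPM in KPC-OG and 168 ± 21.7 CPM in KPC, with a log2 fold change of 0.04 ± 0.22. Rps4x, the X-linked copy of the Rps4 gene, had 292 ± 25.2 CPM in KPC-OG and 329 ± 26.3 CPM in KPC, with a log2 fold change of -0.17 ± 0.15. Rps21, Rps2 and Rps3a1 also did not pass, at 0.54 ± 0.21, -0.14 ± 0.18 and -0.16 ± 0.16.

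In the large subunit core, 42 of 43 genes were tested, 5 rose, 2 fell and 35 did not pass, with a median log2 fold change of 0.08. These calls come to 16.7%, beside 34.1% of all tested genes, whose median was 0.09. The untested gene was Rpl35. Rpl22, which in mouse is known to repress its own paralog Rpl22l1 and is not needed for the life of the animal (chromosome 4, 152325742 to 152334071, plus strand), had 127, 131, 133 and 123 CPM in KPC-OG, against 92.6, 97.3, 97.4 and 90.5 CPM in KPC. The libraries of each group lay close together and apart from the other group, with a rise of 0.45 ± 0.12 (edgeR adjusted p = 0.0149) that held when any single library was left out. Rpl22l1 had 15.2 ± 6.97 CPM in KPC-OG and 12.7 ± 5.26 CPM in KPC (SD, n = 4 each), and did not pass (edgeR adjusted p = 0.632).

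Rpl27 (chromosome 11, 101442298 to 101445529, plus strand) showed the largest rise of the core genes that passed, on few reads. It had 8.25, 7.80, 6.29 and 6.10 CPM in KPC-OG, against 4.2, 4.13, 3.98 and 3.04 CPM in KPC, a rise of 0.90 ± 0.20 (edgeR adjusted p = 0.00693). The call held when any single library was left out. The gene kept only 6.02% of its family's reads, and with copies added the rise was 0.50 ± 0.14 (edgeR adjusted p = 0.0213). Rpl26, at the rim of the polypeptide exit tunnel (chromosome 11, 68901583 to 68906989, plus strand), had 268, 256, 311 and 223 CPM in KPC-OG, against 172, 193, 193 and 163 CPM in KPC. The groups did not overlap, with a rise of 0.55 ± 0.16 (edgeR adjusted p = 0.0210), lost without KPC 1 or KPC 4.

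Rpl35a, whose human counterpart is mutated in Diamond-Blackfan anaemia (chromosome 16, 33056453 to 33060189, plus strand), had 118, 120.2, 159.6 and 101.5 CPM in KPC-OG, against 79.1, 85.8, 96.9 and 78.9 CPM in KPC. KPC-OG 3 was the highest library, and the rise of 0.55 ± 0.16 (edgeR adjusted p = 0.0253) was lost without KPC-OG 2, KPC 1, KPC 2 or KPC 4. Rpl30, which in yeast binds and regulates its own transcript, averaged 115 ± 11.3 CPM in KPC-OG and 85.9 ± 10.3 CPM in KPC (SD, n = 4 each). Its rise of 0.42 ± 0.14 (edgeR adjusted p = 0.0388) was lost without KPC-OG 1, KPC-OG 2, KPC 2, KPC 3 or KPC 4, and with the transcript length offset (0.33, edgeR adjusted p = 0.125).

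Rpl4, whose long loop lines the exit tunnel (chromosome 9, 64173375 to 64178666, plus strand), fell most. It had 398, 370.1, 393 and 365 CPM in KPC-OG, against 688, 449, 570.3 and 638 CPM in KPC. The groups did not overlap, KPC 2 was the lowest KPC library, and the fold change was -0.62 ± 0.19 (edgeR adjusted p = 0.0265). Rpl6 (chromosome 5, 121204481 to 121209241, plus strand) had 97.7, 98.2, 116.6 and 91.2 CPM in KPC-OG, against 129, 115.3, 160.3 and 138 CPM in KPC, with KPC-OG 3 just above KPC 2. Its fold change was -0.43 ± 0.15 (edgeR adjusted p = 0.0482). The Rpl4 call was lost without KPC-OG 1, KPC-OG 2, KPC-OG 4, KPC 1 or KPC 4. The Rpl6 call was lost without those libraries or KPC 3. It was also lost with limma-voom, upper-quartile scaling, thinning to one depth, the transcript length offset, no low-count filter, a minimum count of 30, threads as a covariate and protein-coding transcripts alone, at adjusted p of 0.0512 to 0.0920 by the same test or limma-voom, and with copies added (adjusted p = 0.253).

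**Figure D4:**
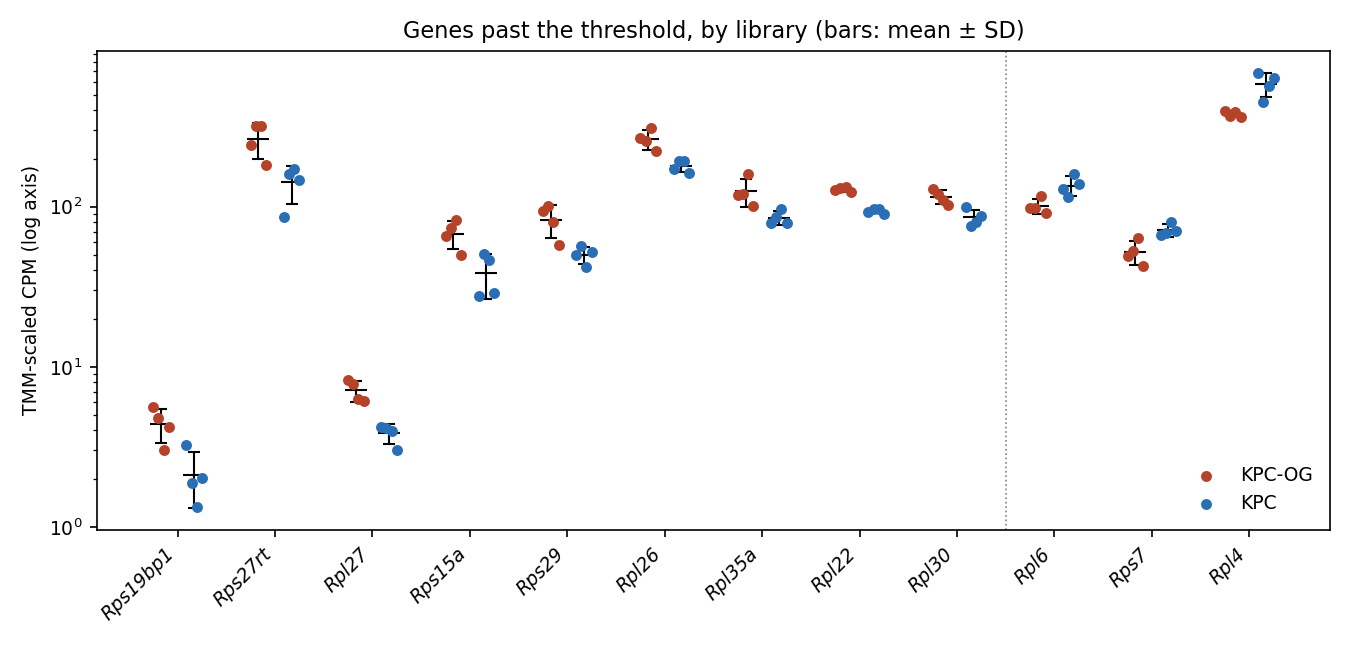
TMM-scaled CPM on a log axis in each library for 12 of the 13 genes that passed, ordered by log2 fold change, with mean and SD and KPC-OG left of KPC. The dotted line separates the 9 higher from the 3 lower genes shown, and the points of the groups overlap for Rps15a, Rps19bp1 and Rpl6.

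Several other large subunit genes did not pass. Rpl11 had 49.1 ± 3.83 CPM in KPC-OG and 49.4 ± 1.97 CPM in KPC (SD, n = 4 each), with a log2 fold change of -0.01 ± 0.11. Its partner Rpl5 had 12.6 ± 3.02 CPM in KPC-OG and 13.9 ± 6.37 CPM in KPC, and its family with copies changed by -0.45 ± 0.24 (edgeR adjusted p = 0.178). Rpl3, near the peptidyl transferase centre, had 296 ± 53.8 CPM in KPC-OG and 361 ± 42.8 CPM in KPC, a log2 fold change of -0.29 ± 0.18. Rpl10, which joins the subunit late in assembly, had 19.9 ± 5.95 CPM in KPC-OG and 23.6 ± 3.17 CPM in KPC. More reads stood at its second copy Rpl10-ps3, with 334 ± 47.6 CPM in KPC-OG and 422 ± 61.6 CPM in KPC (SD, n = 4 each; edgeR adjusted p = 0.184). Rpl39, Rpl36a, Rpl7, Rpl32 and Rpl41 had log2 fold changes of 0.39, 0.34, 0.07, -0.08 and -0.11 and did not pass. Rpl9 had the highest log2 fold change of the core genes, 1.04 ± 0.79, with an adjusted p of 0.347 by edgeR, on values of 47.7 to 164 CPM in KPC-OG and 2.86 to 110.4 CPM in KPC.

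None of the 3 P stalk genes passed edgeR's test after adjustment, while at an unadjusted p under 0.05 1 was higher and 1 lower in KPC-OG, as with DESeq2 after adjustment. Rplp0, the stalk base (chromosome 5, 115559467 to 115563727, plus strand), had 568, 575, 605 and 531 CPM in KPC-OG, against 862, 701, 826 and 830.2 CPM in KPC. All KPC-OG values lay below all KPC values, and the log2 fold change of -0.50 ± 0.18 fell just short of the threshold (edgeR adjusted p = 0.0516). With its 3 copies added it passed narrowly, at the same fold change of -0.50 ± 0.17 (edgeR adjusted p = 0.0458). Those copies held only 0.233% of the reads of the family. Of the proteins that pair on that base, Rplp1 had 558 ± 83.9 CPM in KPC-OG and 563 ± 20.6 CPM in KPC, and Rplp2 had 94.4 ± 9.94 CPM in KPC-OG and 75.8 ± 4.98 CPM in KPC (SD, n = 4 each). Their log2 fold changes were -0.01 ± 0.18 and 0.32 ± 0.13, and neither passed.

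Of the 14 second copies and paralogs, 8 were tested and 1 rose (12.5%, beside 34.1% of all tested genes called in either direction). Rps27rt, a single-exon copy of Rps27 on chromosome 9 (114982366 to 114982739, minus strand), had 243, 320, 321 and 182 CPM in KPC-OG, against 86.7, 161, 172 and 148 CPM in KPC. KPC-OG 4 lay just above the highest KPC library, and the rise was 0.91 ± 0.25 (edgeR adjusted p = 0.0196), lost without KPC-OG 2 (largest adjusted p = 0.0562). Its coding sequence of 252 bases is identical to that of Rps27 on chromosome 3, whose first 60 coding bases (GENCODE M21) are shown as printed for both. Rps27 itself had 6.51, 14.8, 9.23 and 43.9 CPM in KPC-OG, against 16.6, 22.0, 4.78 and 5.57 CPM in KPC. Its libraries spread widely within each group, and reads of these genes cannot be told apart over the coding sequence. Summed, they rose by 0.89 ± 0.22 (edgeR adjusted p = 0.0110).
Rps27 and Rps27rt: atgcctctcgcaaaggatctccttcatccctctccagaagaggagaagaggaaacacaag

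A like pair is Rpl9 and the single-exon Rpl9-ps6 on chromosome 19, which differ at 1 of 576 coding bases. Bases 207 to 266 (GENCODE M21) hold that position, in capitals. Rpl9-ps6 had 191 ± 53.4 CPM in KPC-OG and 160.1 ± 36.6 CPM in KPC, and the family of both with its copies changed by 0.41 ± 0.24 (edgeR adjusted p = 0.219).
Rpl9: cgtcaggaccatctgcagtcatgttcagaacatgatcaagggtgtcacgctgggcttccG
Rpl9-ps6: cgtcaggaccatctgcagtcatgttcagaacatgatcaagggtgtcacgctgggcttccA

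Among the other paralogs, Rps27l, a p53 target, had 38.8 ± 17.0 CPM in KPC-OG and 39.1 ± 5.45 CPM in KPC. Rpl36al, a close relative of Rpl36a, had 53.9 ± 11.9 CPM in KPC-OG and 46.7 ± 3.59 CPM in KPC, and Rpl7l1 had 32.8 ± 4.91 CPM in KPC-OG and 38.7 ± 9.09 CPM in KPC (SD, n = 4 each). None of these passed. Rps12-ps3 had a log2 fold change of 0.76 ± 0.30 (edgeR adjusted p = 0.0756). The testis paralogs Rpl10l and Rpl39l and the muscle paralog Rpl3l were at or near 0 reads, Rpl10l at 0 in every library, as were Rpl9-ps1, Rpl36a-ps1 and Rpl36-ps4, and none of them was tested. Rps19bp1, which encodes a regulator of the deacetylase Sirt1, had 5.57, 4.79, 3.01 and 4.23 CPM in KPC-OG, against 3.25, 1.88, 1.33 and 2.03 CPM in KPC. KPC-OG 3 lay under KPC 1, and the rise of 1.04 ± 0.31 (edgeR adjusted p = 0.0257) was lost without KPC-OG 1, KPC-OG 2, KPC-OG 4, KPC 2, KPC 3 or KPC 4, and with limma-voom.

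Tested as families with the reads of copies added, 7 rose and 2 fell of 82 tested, beside 34.3% of 14171 genes called in either direction in that fit. The higher families included Rpl22, Rpl27, Rps15a, Rps29, Rps27 with Rps27rt, and Rps19bp1, and the lower ones were Rpl4 and Rplp0. Of the 13 members called alone, 8 belonged to a family that was also called, and the families of Rpl6, Rpl26, Rpl30, Rpl35a and Rps7 did not pass. The SD of log2 fold change was 0.31 over the families, and the median was 0.15.

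Fold changes were lower for genes with longer transcripts. Across the 85 tested genes, log2 fold change and log2 mean transcript length had a Pearson r of -0.55 and a Spearman rho of -0.59. Genes are not independent replicates, and the points share the same 8 libraries. With the transcript length of each gene in each library as an offset r was -0.50, and without KPC-OG 3 it was -0.54. That offset holds only differences in a gene's length between libraries. It cannot remove a dependence on length from gene to gene, so its r does not test one. Over all 14267 tested genes r was -0.20, over the 2359 genes of at most 1200 bases it was -0.16, and over 78 mitochondrial ribosomal protein genes it was -0.52. The 28 shortest genes, of 255 to 517 bases, had a median log2 fold change of 0.33, with 5 higher and none lower. The next 28, of 527 to 775 bases, had a median of 0.27, with 4 higher and none lower. The 29 longest, of 782 to 2606 bases, had a median of -0.13, with 1 higher and 3 lower. Over all tested genes 17.4% were higher and 16.6% lower. The genes of this family are short as a whole, with a median of 648 bases beside 2377 for all tested genes. The part of fragment size or RNA quality in this order was not tested.

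**Figure D5:**
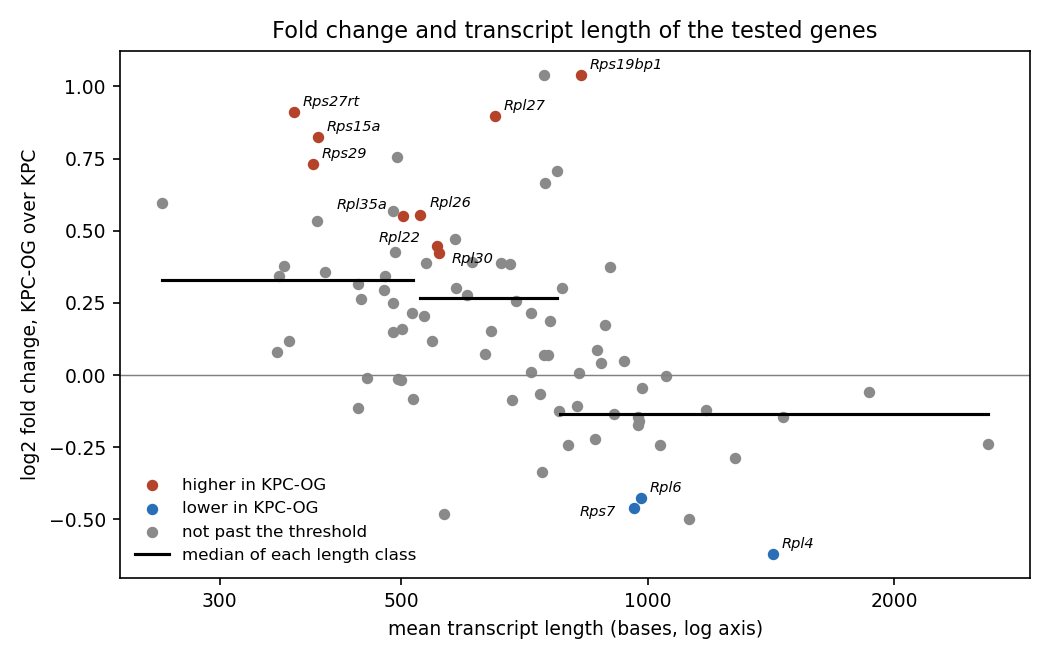
Log2 fold change, KPC-OG over KPC, against mean transcript length in bases on a log axis for 83 of the 85 tested genes, with the genes shown that passed named and a bar at the median of each length class over all 85. The medians are 0.33, 0.27 and -0.13 from the shortest to the longest class, and Rpl4, Rpl6 and Rps7 lie in the longest.

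Introns of ribosomal protein genes often hold small nucleolar RNAs, which guide modification of ribosomal RNA. Of the tested genes, 30 hold 58 annotated snoRNA genes, among them Rpl4 with 5. These hosts had a median log2 fold change of -0.07, with 1 higher and 2 lower, and the 55 other genes had a median of 0.21, with 9 higher and 1 lower, beside 17.4% higher and 16.6% lower over all tested genes. The members lay on 20 chromosomes. By transcript type, transcripts annotated as protein coding held 89.0% to 90.2% of the members' reads in KPC-OG and 90.4% to 90.9% in KPC, and those with a retained intron held 4.44% to 4.92% in KPC-OG and 3.73% to 4.37% in KPC. The groups did not overlap in either share.

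Runs of C and T, the letters that make up a TOP tract, were searched for near the starts of the genes. RefSeq promoter windows of GRCm38.p6 were at hand for 66 members. They were searched on the gene's strand, within 50 bases of the annotated start, for a C that opens an unbroken run of at least 8 letters C or T. The width was chosen after looking at these windows. Such a run was found in 45 of 57 subunit and stalk genes with a window (78.9%), against 21 of 69 mitochondrial ribosomal protein genes (30.4%) and 28.7% of 27025 genes. A TOP tract lies at the first base of the messenger RNA, and whether these runs lie there was not tested. Windows of 30 bases are shown for genes that passed the test and held a run, with the run in capitals. They belong to genes whose level fell (Rpl4 at chr9:64173405-64173434, plus strand; Rpl6 at chr5:121204521-121204550, plus; Rps7 at chr12:28635910-28635939, minus) and rose (Rpl22 at chr4:152325679-152325708, plus; Rpl26 at chr11:68901509-68901538, plus; Rpl27 at chr11:101442195-101442224, plus; Rps15a at chr7:118116141-118116170, minus; Rpl35a at chr16:33056469-33056498, plus).
Rpl4: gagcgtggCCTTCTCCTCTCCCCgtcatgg
Rpl6: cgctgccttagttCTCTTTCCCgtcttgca
Rps7: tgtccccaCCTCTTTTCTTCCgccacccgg
Rpl22: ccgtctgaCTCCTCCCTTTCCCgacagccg
Rpl26: cccaacctCCTCTCCCCTTTCgctccgaga
Rpl27: catcctcgCTCCTCCCTCCacacgccggaa
Rps15a: ccggcccaCTCTCTTTCTgccatcttccct
Rpl35a: ggggcttgCCTTCCTCTTTCCgccatcttg

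With the annotated RefSeq start counted as base 1, the run began inside the transcript at base 27 for Rpl4, 34 for Rpl6, 23 for Rps7 and 25 for Rpl35a. For Rpl22, Rpl26, Rpl27 and Rps15a it lay wholly before that start, beginning at base -39, -49, -42 and -15, and for the first 3 of these it also ended before the GENCODE gene start. Of the other higher genes named here, Rps19bp1 and Rps27rt had a window without such a run, and Rps29 and Rpl30 had no window. The run of the parent gene Rps27 (chr3:90213629-90213658, minus strand) began at base -2 and spanned the annotated start. The window of its copy Rps27rt (chr9:114982718-114982747, minus strand) is given below it.
Rps27: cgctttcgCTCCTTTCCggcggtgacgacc
Rps27rt: atcccttgctttccggcggtgacgacctcc

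Genes that work with the ribosomal proteins were counted in the same test, from lists made by role. The shares over all tested genes were 17.4% higher, 16.6% lower and 34.1% in either direction, with a median log2 fold change of 0.09. Of 18 regulators of ribosome supply and TOP messenger RNAs, 11 fell (61.1% called in all) and none rose in KPC-OG by edgeR, also none at an unadjusted p under 0.05 or by DESeq2 or limma-voom, with a median log2 fold change of -0.72. Larp1, the TOP-binding repressor, averaged 97.8 ± 26.6 CPM in KPC-OG and 334 ± 62.6 CPM in KPC (SD, n = 4 each; edgeR adjusted p = 7.74e-04). Myc, a transcription factor that drives ribosome production, averaged 7.11 ± 0.643 CPM in KPC-OG and 16.8 ± 2.30 CPM in KPC (edgeR adjusted p = 6.24e-04), and Akt1, a kinase upstream of mTOR, fell by 0.95 ± 0.13. Of 18 tested TOP messenger RNAs outside the ribosome, 2 rose and 5 fell, or 38.9%, near the 34.1% of all genes. The elongation factor gene Eef2 fell by 1.05 ± 0.25 (edgeR adjusted p = 0.00911), as did Eif3h by 0.45 ± 0.13 and Tpt1 by 0.66 ± 0.20, while the mesenchymal filament gene Vim rose by 1.47 ± 0.24 and Hnrnpa1 by 0.46 ± 0.13.

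Of 58 ribosome assembly factors, 11 fell and 1 rose, with a median of -0.12. These calls come to 20.7%, below the 34.1% of all genes in either direction, and the count of lower genes is near the 16.6% of all genes. Nolc1 and Utp18 fell by 0.99 ± 0.13 and 1.01 ± 0.14, Bop1 by 0.80 ± 0.14, and Eif6, which keeps the new large subunit from joining early, rose by 0.69 ± 0.14 (edgeR adjusted p = 0.00503). Of 15 tested RNA polymerase I genes, 1 rose (6.67%), Polr1c by 0.45 ± 0.14, and none fell after adjustment by edgeR. At an unadjusted p under 0.05 by edgeR 4 of them were lower, as was 1 by DESeq2 and 0 by limma-voom. Of 17 chaperones, importins and exporters of ribosomal proteins, 2 rose and 4 fell (35.3%, near the share of all genes); the importin genes Ipo5 and Ipo7 fell by 0.74 ± 0.12 and 0.59 ± 0.13, and the Rpl3 chaperone gene Grwd1 rose by 2.01 ± 0.67 on 4.71 ± 0.254 CPM in KPC-OG and 1.14 ± 1.40 CPM in KPC (SD, n = 4 each; edgeR adjusted p = 0.0414). Of 8 partners of the ribosome, Tma7 and Btf3 rose by 0.74 ± 0.13 and 0.37 ± 0.11 and Serbp1 fell by 0.68 ± 0.19. Fau, which encodes a ribosomal protein fused to a ubiquitin-like protein, and Rack1, which sits on the small subunit, did not pass. Of 78 mitochondrial ribosomal protein genes, 10 rose and 6 fell (20.5%), with a median of 0.03, Mrpl33 rising by 1.24 ± 0.15 (edgeR adjusted p = 6.87e-04) and Mrpl28 falling to 11.1 ± 2.0 CPM in KPC-OG, against 15.7 ± 0.463 CPM in KPC (SD, n = 4 each).

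Markers of some cell types in whole pancreas moved with the groups. As a background, 17.4% of all tested genes were higher and 16.6% lower. Of 16 acinar markers 15 fell, with summed levels of 51216 to 179523 CPM in KPC-OG and 334916 to 622366 CPM in KPC. As a share of reads the difference was smaller, at 15.8% ± 3.86 in KPC-OG and 24.2% ± 4.82 in KPC (SD, n = 4 each). On that scale the groups overlapped, with KPC-OG 3 at 20.4% above KPC 3 at 18.99%. Of 12 duct markers 9 rose and 1 fell (1100 to 2167 CPM in KPC-OG and 613 to 840 CPM in KPC), of 12 fibroblast markers 10 rose (1692 to 4795 CPM in KPC-OG and 1007 to 1346 CPM in KPC), and of 12 macrophage markers 9 rose (771 to 1094 CPM in KPC-OG and 237 to 460 CPM in KPC). None of 10 markers of dividing cells passed edgeR's test, and 1 was lower at an unadjusted p under 0.05 and by DESeq2. None of 9 tested lymphocyte markers passed edgeR's test, nor at an unadjusted p under 0.05, nor by DESeq2 or limma-voom. Of 9 tested islet markers 2 rose (22.2%), near the share of all genes that were higher. The part of the cell makeup in the values of the ribosomal protein genes was not tested.

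The file headers record 8 processing threads for KPC-OG 3, KPC 2 and KPC 3 and 24 for the other libraries. With this number as a covariate, 17 ribosomal protein genes were higher and 3 lower. The median log2 fold change was then 0.18 beside 0.09 over all genes. The share of all genes called is not given for this fit or the next. Among the libraries with 24 threads alone, 7 were higher and 6 lower, with a median log2 fold change of 0.06 beside 0.16 over all genes. In that fit Rps29, Rpl30 and Rps19bp1 did not pass (edgeR adjusted p = 0.0871, 0.198 and 0.0637). Among those with 8 threads, of which KPC-OG has 1, the median was 0.40 beside 0.03, and no p-value is given for that fit.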

How the data were processed

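Total RNA of 8 pancreas libraries, 4 KPC-OG and 4 KPC, was sequenced after ribosomal depletion, per the labels' protocols. The authors ran Sailfish 0.6.3, per the file headers, with words of 20 bases, 1000 iterations and bias correction, against mouse cDNA of Ensembl release 76. Further tools in the submitters' processing notes are bcl2fastq, edgeR, limma and STAR 2.0.4b, with no role given. The deposited estimated counts are reads that Sailfish assigned to each transcript, per the file headers, and need not be whole. The deposited TPM values are bias-corrected abundances scaled within each library, per the file headers. The deposited transcript lengths were used for mean lengths and for a length offset. Whether strand was used in counting is not given, so overlapping and antisense genes cannot be told apart.

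Of 86127 transcripts, 83827 matched GENCODE M21 (GRCm38), and the 2300 others, with 1.45% to 3.04% of estimated reads in KPC-OG and 3.93% to 4.23% in KPC, were left out. Estimated counts were summed per gene and rounded. The test was edgeR 4.0.16 quasi-likelihood (robust, TMM, filterByExpr by group, no covariate) in R 4.3.3, with Benjamini-Hochberg adjustment over all 14267 tested genes and a threshold of 0.05. KPC libraries were shallower, which makes their low values less precise. Alternatives were other scalings, filters and units, DESeq2 1.42.0, limma-voom (limma 3.58.1), a length offset, copies, thinning, left-out libraries and the replicate block. Adding copies and using the header threads were chosen after seeing the data. The edgeR fit was run on simulated counts with planted changes, and DESeq2 and limma-voom were not. Those counts held no difference in composition like that between the groups, so they did not test the scaling. No 2 libraries of a group differed as little as counting noise, and none was counted as a duplicate.

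Members and lists were chosen with earlier results of these data known. Named members were, in each role class, the 4 with the smallest adjusted p in each direction and the 3 with the highest mean TPM, and a list of members with known roles. In other lists up to 3 genes in each direction were named. Rpl30, Rpl9, Rpl35, Rps23, Rpl23a, Rpl13a and the genes near copies (Gm15500, Gm2000, Rpsa-ps10) were chosen after their values were seen, as were Fau and Rack1. Some genes that the rule names are counted but not reported here by name.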

Additional observations from a re-analysis of the deposited data

Results flagged for a closer look

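A library stood apart from the other 3 of its group in 3 of 88 groups of 4 libraries checked, by its gap to the nearest value over the range of the group. Chance gives such a gap in about 1 of 20 groups. In KPC-OG, Rps24 was 755 CPM and Rpl41 was 524 CPM in KPC-OG 3, far above the other KPC-OG libraries (359 to 413 CPM for Rps24 and 242 to 286 CPM for Rpl41). In KPC, Rpl36a was 108.9 CPM in KPC 2, below the other KPC libraries at 128 to 130.2 CPM.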

How the results depend on the processing

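The counts of ribosomal protein genes called, 10 higher and 3 lower, depended on scaling first. With library sizes alone 84 were higher and 0 lower, and with deposited TPM on the log2 scale at a pseudocount of 0.1 or of 1, 83 were higher and 0 lower. By construction these settings hold no correction for composition. Rpl4, Rpl6 and Rps7 then turned direction, with 1.13, 1.29 and 1.24 under library sizes alone, 0.98, 1.23 and 1.12 under TPM with a pseudocount of 0.1, and 0.98, 1.22 and 1.10 with 1. Lower genes numbered 5 with DESeq2, 6 with the libraries of 24 threads alone, and 1 each with no low-count filter, with thinning to one depth and with upper-quartile scaling. With threads as a covariate 17 were higher. The cause was not tested. Leaving out 1 library gave 5 to 16 higher and 0 to 7 lower. For these counts, other than with library sizes alone, the share of all genes called in the same fit is not given. Whether replicate numbers pair the libraries is not stated in the labels, and these values do not settle it. With group means removed, same-numbered libraries correlated at 0.274, 0.275, 0.0385 and 0.0361, and differently numbered ones at -0.325 to 0.197. The replicate block gave 18 higher and 4 lower. Of the pathway and mitochondrial lists, 18 genes were higher and 38 lower, beside 17.4% higher and 16.6% lower of all tested genes. The number tested in each list is given above. With library sizes alone the counts were 206 and 0, beside 91.7% of all genes higher. With 1 library left out they were 9 to 18 and 22 to 41, and the share of all genes in those fits is not given. They were lowest without KPC-OG 1 for higher genes and without KPC-OG 4 for lower genes. The share of reads differed by 1.62 percentage points, by 2.53 with copies added and by 3.59 as a share of TPM. Depth in KPC limits the genes whose reads stand mostly at copies.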
